A study of Homo sapiens with 3 samples.

Results

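The 10 genes described here encode the subunits of Polycomb repressive complex 2 (PRC2) and were chosen by name, as EZH2, EZH1, EED, SUZ12, RBBP4, RBBP7, JARID2, MTF2, PHF19 and AEBP2. All 10 of the 10 symbols were found among the 36601 genes of the count tables. Transcripts were counted in single cells of OVCAR3 cells, a long-established line from a high-grade serous carcinoma of the ovary. The DMSO library came from cells given only the solvent, the RAC1i library from cells given 50 μM of the RAC1 inhibitor NSC23766, and the Combo library from cells given 50 μM NSC23766 together with 5 μM of the EZH2 inhibitor GSK126. Every culture was treated for 48 hours, and cells treated with the EZH2 inhibitor alone were not analysed here. Each condition was 1 library of 1 cell line, so no test between conditions was possible and no p-value is given. Intervals are 95% intervals, exact unless stated, that cover counting error only.

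PRC2 places methyl groups on lysine 27 of histone H3, a mark of silenced genes. Its core is formed by EZH2 or its relative EZH1, which carry the catalytic domain, by SUZ12, the scaffold, by EED, which binds the finished mark and stimulates the enzyme, and by RBBP4 or RBBP7, which bind histones. MTF2 and PHF19 belong to the form called PRC2.1, and JARID2 and AEBP2 to PRC2.2. EZH2 is typical of dividing cells, whereas EZH1 is also found in cells that do not divide. GSK126 blocks the activity of the enzyme, and the counts here are of transcripts, not of activity.

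The kept cells numbered 7531 in DMSO, 10215 in RAC1i and 8239 in Combo, with 199063947 to 234969742 unique molecular identifiers (UMIs, each standing for 1 captured transcript) per library. Median UMIs per kept cell ran from 20989 to 26750. The median mitochondrial share of a cell differed, at 5.60% for DMSO beside 1.66% for RAC1i and 1.58% for Combo, and its part in the differences described below was not tested. Markers of a serous ovarian cancer cell were present in each library, with EPCAM between 274 and 320 CPM, the gene's UMIs per 1000000 UMIs of the cells summed, although other markers of the list were lower in the treated libraries. PAX8 was at 355, 54.3 and 47.8 CPM in DMSO, RAC1i and Combo, MUC16 at 137, 43.3 and 37.6 CPM, WT1 at 32.0, 10.4 and 7.87 CPM, and KRT7 at 1226, 486 and 601 CPM, and their part in the results was not tested. Of the defining markers of other cell types, PTPRC of leukocytes had at most 5 UMIs in a library, DCN of fibroblasts at most 16 and CDH5 of endothelial cells at most 21. Other genes of those lists were above this, with COL1A1 at 1096 to 1338 UMIs per library, CD79A at 13 in DMSO but 523 and 493 in RAC1i and Combo, and PECAM1 at 94, 310 and 316, and their part in the results was not tested. Pairs of libraries shared 15 to 23 barcodes among kept cells.

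EZH2, the main catalytic subunit, was lower in both libraries that received the RAC1 inhibitor. Its level was 32.1 CPM with DMSO (6389 UMIs), 12.4 CPM with RAC1i (2918 UMIs) and 15.2 CPM with Combo (3228 UMIs). The 95% intervals of the 3 levels did not overlap, and the order was DMSO, Combo and RAC1i from high to low. The RAC1i level was 0.387 times that of DMSO (0.370 to 0.404), the Combo level 0.473 times (0.453 to 0.493), and Combo exceeded RAC1i 1.22-fold (1.16 to 1.28). After each cell was thinned to 5000 UMIs, an EZH2 UMI was found in 14.2% of DMSO cells (13.3 to 15.03), 5.95% of RAC1i cells (5.47 to 6.45) and 6.91% of Combo cells (6.34 to 7.51), beside shares before thinning (44.2%, 21.4% and 26.8%). No cell type that should lack EZH2 was present, so a background share could not be measured. No cell held more than 10 EZH2 UMIs.

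The EZH2 gene lies at chr7:148807257-148884321 on the minus strand of GRCh38. Its upstream region is shown because EZH2 was the member most closely tied to the cell cycle in what follows. CCAAT is the letter pattern bound by NF-Y, a factor known at many promoters of cell cycle genes. EZH2 has 2 RefSeq start sites, and CCAAT was found before the first of them in the direction of the gene (148884291) but not before the second (148883485). Of the 250 bases before the first, the stretch chr7:148884324-148884395 (minus strand, GRCh38.p14, 104 to 33 bases before the start, upstream of the annotated gene) held 3 of the 4 matches to CCAAT on either strand, in capitals here.

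EZH2 promoter: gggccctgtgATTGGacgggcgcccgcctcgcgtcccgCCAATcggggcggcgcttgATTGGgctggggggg

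Among 35116 promoter windows of the same length, 32.0% held at least 1 CCAAT on either strand and 0.874% held 4 or more. Of the members' 15 windows, 10 held at least 1. A further pattern searched on both strands, TTTGAA (called CHR), was in neither EZH2 window. It was in 1 of the members' 15 windows, that of SUZ12, and in 13.3% of all windows. A match describes the letters only.

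EZH1, the second catalytic subunit, was at 7.16 CPM with DMSO, 2.18 CPM with RAC1i and 3.01 CPM with Combo (1426, 512 and 640 UMIs). It was thus also highest in DMSO and lowest in RAC1i, and no interval overlapped another. The ratio to DMSO was 0.304 (0.274 to 0.337) for RAC1i and 0.420 (0.382 to 0.461) for Combo. The 2 catalytic subunits were the members furthest below DMSO, and both were higher in Combo than in RAC1i (EZH1 1.38-fold, 1.23 to 1.55). EZH1 stayed under 10 CPM in each library and is left out of those counts across genes that use that minimum.

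Among the core partners, EED was the member nearest to 1. Its level was 15.3 CPM with DMSO, 14.4 CPM with RAC1i and 14.2 CPM with Combo. Its ratio to DMSO was 0.944 (0.899 to 0.992) for RAC1i and 0.926 (0.880 to 0.974) for Combo, and scaling by DESeq2 size factors turned both slightly positive (log2 0.03 and 0.01). SUZ12 was at 74.4, 59.1 and 58.0 CPM in DMSO, RAC1i and Combo. The RAC1i and Combo levels of EED and of SUZ12 did not differ beyond counting error (Combo over RAC1i 0.981, 0.933 to 1.03, and 0.982, 0.958 to 1.01). SUZ12 thus stood at 0.795 (0.776 to 0.813) and 0.780 (0.762 to 0.799) times DMSO. SUZ12, RBBP4, EED and EZH2 have pseudogene copies in the annotation, and reads that match a copy equally well may be lost from their counts.

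The 2 histone-binding subunits were lower by similar ratios. RBBP4 was at 94.6 CPM with DMSO, 65.3 CPM with RAC1i and 63.4 CPM with Combo, and RBBP7 was at 87.1, 58.7 and 61.2 CPM. Their ratios to DMSO were 0.691 (0.676 to 0.706) and 0.674 (0.659 to 0.689) in RAC1i, and 0.670 (0.655 to 0.685) and 0.703 (0.687 to 0.719) in Combo. Both genes also serve other chromatin complexes, such as those with histone deacetylases.

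The accessory subunits differed in direction. In PRC2.1, PHF19 was at 24.1 CPM with DMSO, 15.3 CPM with RAC1i and 13.5 CPM with Combo, or 0.636 (0.609 to 0.664) and 0.562 (0.537 to 0.589) times DMSO. MTF2, its relative in the same form of the complex, was instead at 41.7, 49.7 and 46.2 CPM, or 1.19 (1.16 to 1.23) and 1.11 (1.08 to 1.14) times DMSO. In PRC2.2, AEBP2 was at 19.8 CPM with DMSO, 34.2 CPM with RAC1i and 28.6 CPM with Combo, or 1.73 (1.66 to 1.80) and 1.44 (1.39 to 1.5) times DMSO. AEBP2 and MTF2 were thus the only members above DMSO in both treated libraries, highest in RAC1i and with no overlap of the 3 intervals. JARID2 was at 11.1, 10.1 and 8.31 CPM, or 0.912 (0.860 to 0.967) and 0.750 (0.705 to 0.799) times DMSO. Its direction is not settled, since the mean over cells of CPM put it above DMSO in both (log2 0.41 and 0.35) and thinning did so in RAC1i (log2 0.10).

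**Figure D1:**
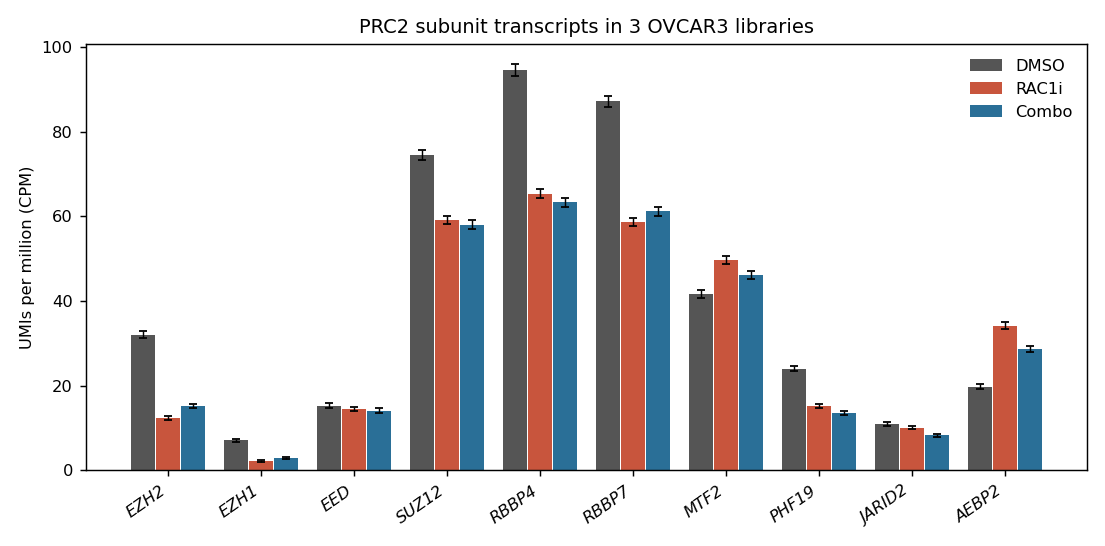
Bars give the level of each PRC2 subunit in CPM over the kept cells of DMSO, RAC1i and Combo, and lines the exact 95% counting interval. Levels may be compared between libraries within a gene only. EZH2, EZH1 and PHF19 stand highest in DMSO, and AEBP2 and MTF2 highest in RAC1i.

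The subunits were also counted beside all genes. The counting interval lay below 1 for 8 of the 10 members and above 1 for 2, both in RAC1i over DMSO and in Combo over DMSO. Of 30407 and 30212 genes with any UMI it lay below 1 for 35.1% and 34.7% and above 1 for 30.7% and 30.3%, a share that also holds genes with too few UMIs for a narrow interval. Among genes with 10 CPM in the higher library, it lay below 1 for 7 of 9 members in both comparisons, where it did so for 56% and 55.2% of genes, and above 1 for 2, where it did so for 40.6% and 40.8%. In Combo over RAC1i it lay below 1 for 5 of 9 and above 1 for 2, beside 39.2% and 42.99% of genes. By size of the difference, a gene was counted when it differed by at least 1.5-fold and reached 10 CPM in the higher library. For RAC1i over DMSO, 2 of the 9 members that reached this level were lower (EZH2 and PHF19) and 1 was higher (AEBP2), where 36.9% of 8778 genes were lower and 22.7% higher. For Combo over DMSO, 2 of 9 were lower (again EZH2 and PHF19) and 0 higher, where 35.4% of 8745 genes were lower and 21.3% higher. For Combo over RAC1i, 0 of 9 passed, where 0.175% of 7443 genes were higher and 0.484% lower. The median log2 ratio of the 9 members with 10 CPM was -0.33 for RAC1i over DMSO and -0.41 for Combo over DMSO. For all genes at that level it was -0.20 and -0.18. With EZH1 included, the median of the 10 members was -0.43 and -0.46. EZH2 lay at the 16.0th percentile of all genes for RAC1i over DMSO and at the 93.5th for Combo over RAC1i. Leaving mitochondrial genes out of the total also put RBBP4 and RBBP7 past 1.5-fold lower in RAC1i, and the mean over cells of CPM put RBBP7 lower and AEBP2 higher in Combo, for 5 and 4 members in all. RBBP7 alone also passed in RAC1i with the mean over cells (log2 -0.71) and after thinning (log2 -0.66). In Combo, RBBP4 also passed without mitochondrial genes (log2 -0.64) and RBBP7 after thinning (log2 -0.65), for 3 members each. Scaling by TMM or DESeq2 size factors took PHF19 in RAC1i under 1.5-fold (log2 -0.57 and -0.54), leaving 2 members, and put AEBP2 in Combo past it (log2 0.62 and 0.65), for 3.

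MKI67 encodes a protein of dividing cells, and its transcript was also lower in the treated libraries, at 177, 65.6 and 68.4 CPM in DMSO, RAC1i and Combo. A cell was classed MKI67-positive when it had at least 1 MKI67 UMI after thinning to 5000 UMIs. By this rule 40.3% of 6725 cells were positive in DMSO (39.2 to 41.5), 21.2% of 9200 in RAC1i (20.4 to 22.0) and 22.1% of 7354 in Combo (21.1 to 23.0). Without thinning the shares were 64.5%, 48.4% and 52.2%. The class misses cells whose MKI67 UMIs were not drawn, so that 69.3 CPM of MKI67 remained in the negative cells of DMSO, against 308 CPM in the positive cells. Positive cells were also deeper, with a median of 33016 UMIs and 26377 UMIs for positive and negative DMSO cells, 24584 and 22499 for RAC1i cells, and 28462 and 27380 for Combo cells.

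Within each library, EZH2 was higher in MKI67-positive than in MKI67-negative cells. In DMSO it was at 42.8 CPM in positive and 23.2 CPM in negative cells, a ratio of 1.85 (1.75 to 1.94). In RAC1i it was at 17.1 and 11.1 CPM, a ratio of 1.54 (1.42 to 1.67), and in Combo at 20.5 and 13.6 CPM, a ratio of 1.51 (1.4 to 1.63). With levels from all UMIs, the ratio in DMSO thus lay above the intervals of both treated libraries, which overlapped each other. For Combo this depended on the setting. With levels from thinned UMIs the log2 ratio of EZH2 in Combo went from 0.59 to 0.85, near the 0.88 of DMSO from all UMIs. EZH2 was the only member past 1.5-fold in each library, of the 9 that reached 10 CPM in DMSO and RAC1i and the 8 in Combo (without JARID2), where 2.76% of 8338 genes were higher in positive cells of DMSO, 1.13% of 7424 in RAC1i and 1.18% of 7466 in Combo. No member was at least 1.5-fold lower, and 0.036%, 0.0135% and 0.0134% of all genes were. When cells were classed by TOP2A, another gene of dividing cells, EZH2 fell short of 1.5-fold in RAC1i and Combo, leaving 0 members in RAC1i and PHF19 alone in Combo. Classing by MKI67 at 2500 UMIs also left 0 in RAC1i. In DMSO, classing at 10000 UMIs or from all UMIs put PHF19 past the limit as well.

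The level of EZH2 also went up with the number of MKI67 UMIs. In DMSO it was 23.2 CPM in cells with 0 MKI67 UMIs, 38.7 CPM with 1 and 47.0 CPM with 2 or more. In RAC1i the same steps gave 11.1, 16.3 and 19.3 CPM, and in Combo 13.6, 19.4 and 23.2 CPM. Treated cells with 2 or more MKI67 UMIs thus stood no higher in EZH2, within counting error, than DMSO cells in which none was drawn.

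The other members followed MKI67 less. PHF19 came next, at 28.8 against 20.01 CPM in DMSO (ratio 1.44, 1.36 to 1.52), 18.9 against 14.3 CPM in RAC1i (1.32, 1.22 to 1.42) and 16.9 against 12.7 CPM in Combo (1.33, 1.23 to 1.45). SUZ12 had ratios from 1.31 in DMSO down to 1.2 in Combo, and RBBP4 of 1.22, 1.23 and 1.23 in DMSO, RAC1i and Combo. RBBP7 followed with 1.24, 1.13 and 1.14. MTF2, AEBP2, EED and JARID2 lay between 1.02 and 1.248 in the 3 libraries. EZH1, with few UMIs, had ratios of 1.02, 1.10 and 1.10, and its interval held 1 in each library. In Combo the intervals of EED and AEBP2 also held 1. Of the members with 10 CPM, the interval lay above 1 for 9 of 9 in DMSO, 9 of 9 in RAC1i and 6 of 8 in Combo, where it did so for 49.5%, 51.6% and 43.96% of all genes. Their median log2 ratio was 0.29, 0.30 and 0.23 in the 3 libraries, beside 0.07, 0.08 and 0.06 for all genes.

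**Figure D2:**
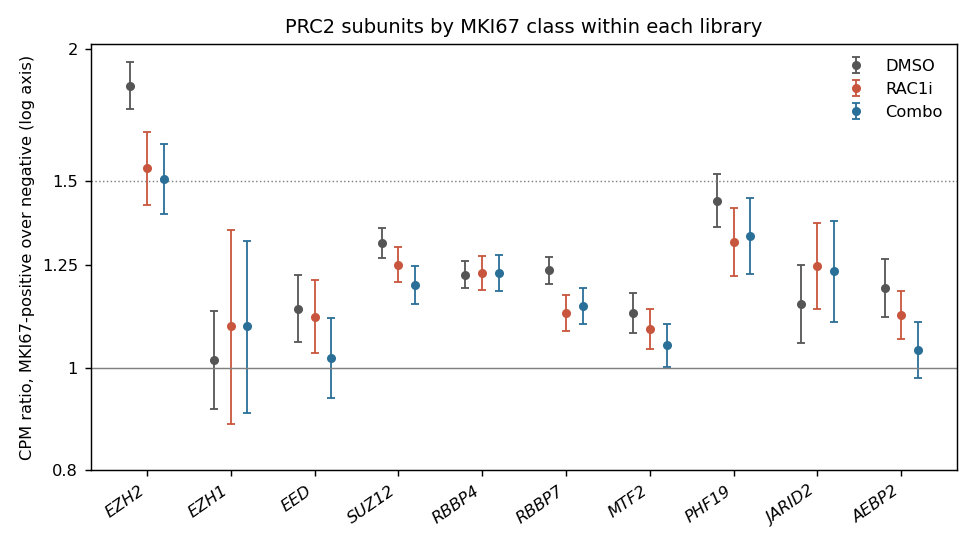
Points give the ratio of CPM in MKI67-positive over MKI67-negative cells of 1 library for each PRC2 subunit on a log axis, with 95% counting intervals. The solid line marks a ratio of 1 and the dotted line 1.5. EZH2 is the only gene above the dotted line, at 1.85 in DMSO, 1.54 in RAC1i and 1.51 in Combo.

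Both classes showed the difference between libraries, but the classes were not alike across libraries. MKI67 was at 308, 171 and 176 CPM in positive cells of DMSO, RAC1i and Combo, and at 69.3, 34.0 and 35.8 CPM in negative cells. The ratios within a class thus do not hold MKI67 level. Among MKI67-positive cells EZH2 in RAC1i was 0.400 times its level in DMSO (0.371 to 0.430), and among MKI67-negative cells 0.478 times (0.451 to 0.508). The same ratios for Combo over DMSO were 0.479 (0.446 to 0.514) and 0.587 (0.554 to 0.622). Combo exceeded RAC1i 1.2-fold in positive cells (1.09 to 1.31) and 1.23-fold in negative cells (1.15 to 1.30). EZH1 in RAC1i was at 0.316 and 0.293 times DMSO, and AEBP2 at 1.71 and 1.82 times, in positive and negative cells. EED did not differ from DMSO beyond counting error in either class of RAC1i (0.963, 0.883 to 1.05, and 0.980, 0.920 to 1.05). In Combo it was lower in positive cells (0.883, 0.805 to 0.968) but not beyond counting error in negative cells (0.983, 0.921 to 1.05).

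A finer view came from 2 lists of cell cycle genes, 43 genes of DNA synthesis (S) and 53 of G2 and mitosis (G2M, without MKI67). The UMIs of a list were summed in each thinned cell and divided into 4 ranges with limits set on the DMSO cells so that each range held a like number of them. The ranges cut a continuous score and are not cell types, with 3458 of the 6725 DMSO cells within 1 UMI of a limit of the S list. The highest S range held 23.7% of DMSO cells but 2.96% of RAC1i (272 cells) and 3.62% of Combo cells (266 cells). The highest G2M range held 24.9%, 9.38% and 9.12%. Of the S list, 25 of 40 genes were at least 1.5-fold lower in RAC1i than in DMSO and 1 was higher, and of the G2M list 27 of 52 were lower and 5 higher, where 36.9% of all genes were lower and 22.7% higher.

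EZH2 climbed along the S list in each library. In DMSO it was at 13.4, 26.6, 38.3 and 51.7 CPM from the lowest to the highest range. In RAC1i it was at 8.86, 11.9, 19.0 and 31.2 CPM, and in Combo at 9.85, 14.5, 21.8 and 36.2 CPM. The highest range exceeded the lowest 3.86-fold (3.54 to 4.21), 3.52-fold (3.02 to 4.10) and 3.68-fold (3.21 to 4.21), so the 3 intervals overlapped. At every range DMSO was highest, and in the highest range the intervals of RAC1i (27.3 to 35.6 CPM) and Combo (32.4 to 40.4 CPM) overlapped. Along the G2M list the step was 3.55-fold in DMSO (3.25 to 3.88), 2.64-fold in RAC1i (2.30 to 3.05) and 2.45-fold in Combo (2.15 to 2.80), smaller in the treated libraries.

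In DMSO, the S list and MKI67 class each went with EZH2 within ranges or classes of the other. Among DMSO cells in the lowest S range, EZH2 was at 10.7 CPM without and 21.8 CPM with an MKI67 UMI. In the highest S range it was at 42.7 and 57.3 CPM. In the highest S range of RAC1i the values were 29.4 CPM (24.6 to 34.8, 173 cells) and 34.5 CPM (27.7 to 42.5, 99 cells), which did not differ beyond counting error. Nor did those of Combo, at 34.95 CPM (30.2 to 40.2, 161 cells) and 38.4 CPM (32.0 to 45.8, 105 cells). In the lowest S range the classes were apart, at 7.94 and 13.2 CPM in RAC1i and 8.85 and 14.6 CPM in Combo.

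PHF19 differed from EZH2 in the list it followed. Along the S list it was at 19.5, 25.7, 24.8 and 26.04 CPM in DMSO, and its step from lowest to highest range was 1.34-fold (1.23 to 1.46) in DMSO, 0.908 (0.732 to 1.12) in RAC1i and 1.01 (0.831 to 1.23) in Combo. Along the G2M list the step was 2.14-fold (1.964 to 2.34), 2.27-fold (2.04 to 2.54) and 2.42-fold (2.14 to 2.75). In the highest G2M range PHF19 reached 32.3 CPM with DMSO, 27.6 CPM with RAC1i and 25.1 CPM with Combo. PHF19 in the treated libraries thus lay closer to DMSO in that range than EZH2, which was at 47.4, 18.1 and 22.0 CPM.

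**Figure D3:**
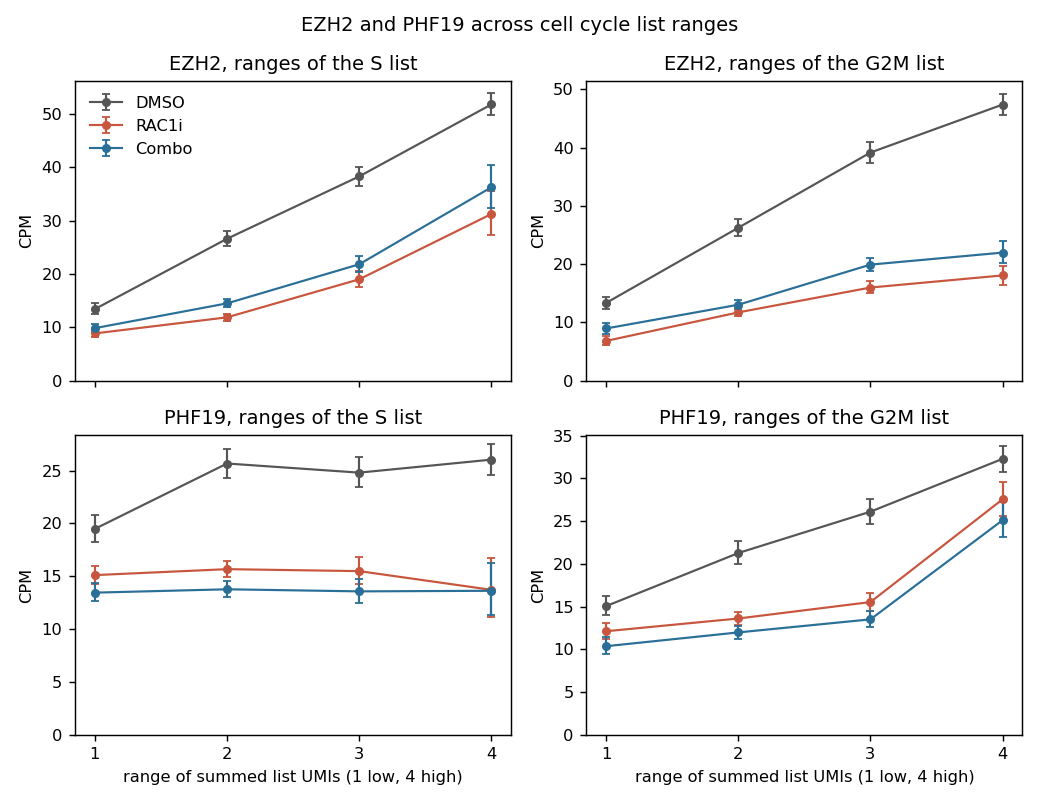
Points give the CPM of EZH2 (upper row) and PHF19 (lower row) in cells of 4 ranges of the summed UMIs of the S list (left) or the G2M list (right), with 95% counting intervals. EZH2 rises along both lists in each library, from 13.4 to 51.7 CPM along the S list in DMSO, whereas PHF19 is nearly flat along the S list in RAC1i and Combo.

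The remaining subunits had smaller steps than EZH2. Along the S list in DMSO the step was 1.78-fold for EED (1.60 to 1.98), 1.59-fold for SUZ12, 1.55-fold for RBBP4, 1.49-fold for RBBP7 and 1.24-fold for MTF2. RBBP4 had a step of 2.06-fold in RAC1i (1.91 to 2.22). AEBP2 and EZH1 held 1 in their S intervals in each library. JARID2 was lower in the highest than in the lowest S range of DMSO (0.878, 0.775 to 0.993) and of RAC1i (0.754, 0.562 to 0.994), while its Combo interval held 1. Along the G2M list JARID2 was at 1.17 (1.01 to 1.35) in RAC1i, the other way, and held 1 in DMSO and Combo. AEBP2 had steps along the G2M list of 1.2-fold in DMSO (1.10 to 1.31), 1.29-fold in RAC1i (1.19 to 1.39) and 1.27-fold in Combo (1.16 to 1.39), while EZH1 held 1 there in each library. SUZ12 had G2M steps of 1.57, 1.58 and 1.67-fold, RBBP7 of 1.54, 1.42 and 1.43-fold and RBBP4 of 1.36, 1.37 and 1.36-fold in DMSO, RAC1i and Combo.

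Giving RAC1i and Combo the DMSO make-up over the 4 S ranges, a step chosen after the data were seen, brought EZH2 part of the way to DMSO (intervals here are approximate, from the counting error of each range). RAC1i over DMSO became 0.544 (0.509 to 0.581) and Combo over DMSO 0.632 (0.596 to 0.669). The same step over the G2M ranges gave 0.415 (0.395 to 0.436) and 0.505 (0.481 to 0.529). EZH1 in RAC1i hardly moved over S ranges (0.323), nor did AEBP2 (1.74) or PHF19 (0.626). Over G2M ranges PHF19 did move toward DMSO, to 0.731 (0.697 to 0.767) in RAC1i and 0.649 (0.616 to 0.683) in Combo. Over S ranges RBBP4 in RAC1i went to 0.817 (0.792 to 0.842) and EED to 1.04 (0.973 to 1.11). The same step took the median log2 ratio of 8769 genes in RAC1i over DMSO from -0.21 to -0.14. Combo over RAC1i for EZH2 was 1.16 (1.07 to 1.26) over S ranges. Of the 40 S list genes with 10 CPM, 25 were themselves at least 1.5-fold lower than DMSO in RAC1i and 21 in Combo. A range thus need not hold like cells in each library, and this step cannot separate the make-up of the cells from lower levels in them. The highest S range also rested on 272 RAC1i and 266 Combo cells.

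**Figure D4:**
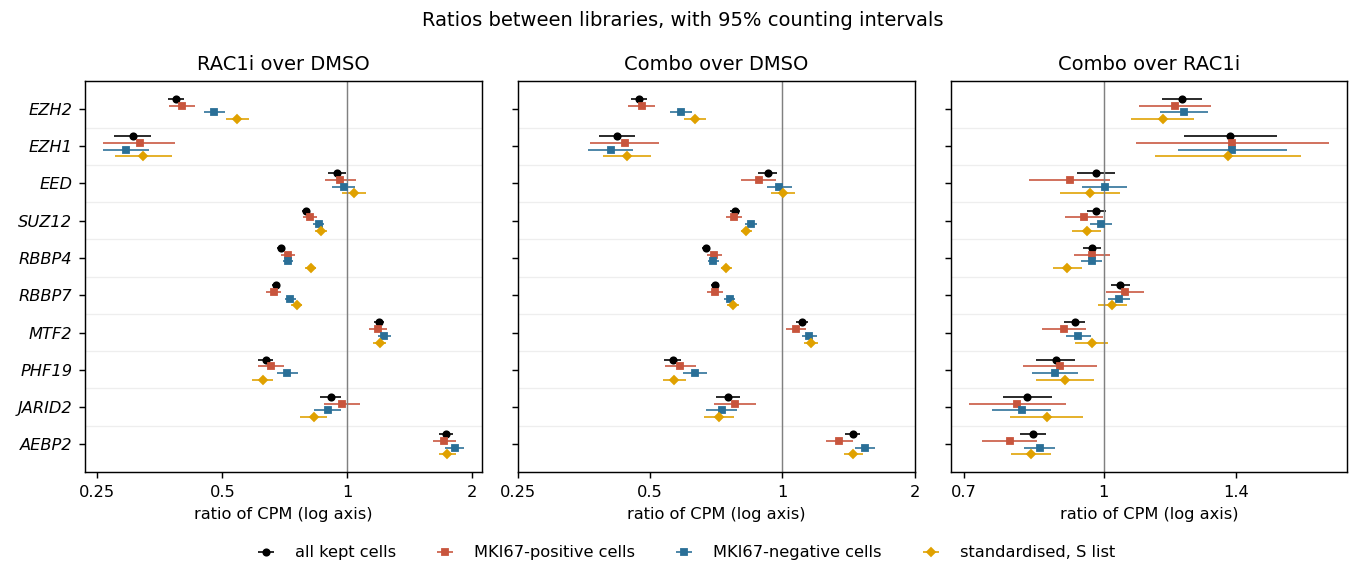
Each panel gives the ratio of CPM between a pair of libraries on a log axis for the 10 subunits, with 95% counting intervals. Circles are all kept cells, squares are MKI67-positive or MKI67-negative cells, and diamonds are cells standardised to the DMSO make-up over S ranges. EZH2 stays below 1 against DMSO in each form, between 0.387 and 0.544 in RAC1i, while AEBP2 stays above 1.

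Because several members moved along the cell cycle lists, the 250 bases before each start site were searched for 4 forms of the E2F pattern (TTTCCCGC, TTTGGCGC, TTTCGCGC and TTTGCCGC, both strands). E2F factors are the known regulators of genes for entry into DNA synthesis. Of 35116 RefSeq windows, 2.79% held 1 of these forms. Of the members' 15 windows 4 did, those of SUZ12, PHF19 (1 of its 2), AEBP2 and EZH1, and those of EZH2 did not hold these letters. The matches are printed in capitals with 20 bases on each side, from the plus strand for SUZ12 (chr17:31936798-31936845) and AEBP2 (chr12:19440429-19440476) and from the minus strand for PHF19 (chr9:120877313-120877360) and EZH1 (chr17:42745128-42745175) of GRCh38.p14. None of the 4 stretches overlapped an annotated exon. Those of SUZ12 and EZH1 lay upstream of the annotated gene, and those of PHF19 and AEBP2 lay inside it, before a start site that is not the gene's first.

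SUZ12 promoter: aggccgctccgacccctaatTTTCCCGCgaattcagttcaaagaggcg
PHF19 promoter: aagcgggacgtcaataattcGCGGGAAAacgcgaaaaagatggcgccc
AEBP2 promoter: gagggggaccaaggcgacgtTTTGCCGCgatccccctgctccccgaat
EZH1 promoter: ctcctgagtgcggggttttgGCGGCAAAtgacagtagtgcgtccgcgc

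The 4 genes with these letters included PHF19, which was lower in RAC1i and followed the G2M list, and AEBP2, which was higher in RAC1i. A letter match is not a binding site, and no binding was measured.

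The genes whose counts went most with EZH2 across thinned cells, among 2143 genes with at least 50 CPM in each library, were TUBA1B, MKI67, HIST1H4C, TYMS and HMGB2. Their mean Pearson correlation over the 3 libraries was 0.092, 0.085, 0.081, 0.075 and 0.073, on log2 of UMIs plus 1. These values are weak, as sparse counts make them, and the points share a library and are all thinned to 1 depth. TYMS makes a DNA building block, HMGB2 is a chromatin protein of dividing cells, and both stand in the cell cycle lists. Among the other members the highest mean correlation with EZH2 was 0.029, for RBBP4.

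Of the PRC2 partners outside the 10 subunits, EPOP and LCORL were at least 1.5-fold higher in the treated libraries. EPOP, an accessory protein of PRC2.1, was at 3.004 CPM with DMSO, 15.1 CPM with RAC1i and 16.2 CPM with Combo, 5.01-fold (4.60 to 5.48) and 5.38-fold (4.93 to 5.88) above DMSO. LCORL, whose gene encodes another PRC2.1 partner (PALI2), was at 10.6, 25.7 and 24.1 CPM. LCOR, which encodes PALI1, was at 55.8, 71.4 and 66.8 CPM. PHF1, the third relative of MTF2 and PHF19, was at 12.7, 12.3 and 13.7 CPM. EZHIP, an inhibitor of the complex, had 10 to 19 UMIs per library. Of these 4 genes with 10 CPM, 2 were at least 1.5-fold higher in RAC1i than in DMSO (EPOP and LCORL) and 0 lower, where 22.7% and 36.9% of all genes were, and EPOP reached 10 CPM only in the treated libraries.

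Polycomb repressive complex 1 (PRC1), which reads the mark of PRC2 or places ubiquitin on histone H2A, held genes that differed in both directions. Of 22 PRC1 genes with any UMI, the interval lay above 1 for 10 and below 1 for 11 in RAC1i over DMSO, where it did so for 30.7% and 35.1% of 30407 genes. In Combo over DMSO it lay above 1 for 11 and below 1 for 9, where it did so for 30.3% and 34.7% of 30212 genes. Of 16 PRC1 genes with at least 10 CPM, 10 were at least 1.5-fold higher in RAC1i than in DMSO and 0 lower, with a median log2 ratio of 0.71, where 22.7% of all genes were higher and the median of all genes was -0.20. RYBP went from 38.2 CPM to 152 CPM (3.97-fold, 3.87 to 4.07) and BMI1 from 23.0 to 61.5 CPM (2.67-fold, 2.58 to 2.76). In Combo, 9 were higher and 1, PCGF5, was lower (0.660, 0.634 to 0.686), where 21.3% and 35.4% of all genes were. None of the 16 passed 1.5-fold between Combo and RAC1i. PCGF1, CBX8 and KDM2B were under 10 CPM in DMSO and were counted because they reached it in a treated library, so the count of 16 leans toward genes that were higher there. The minimum also left out 6 PRC1 genes, of which 5 had intervals below 1 in both treated libraries against DMSO. In RAC1i these were PHC1 (0.425 times DMSO), CBX2 (0.482), CBX7 (0.440), SCMH1 (0.392) and SCML2 (0.630).

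Among the genes that act against the mark, the H3K27 demethylases KDM6A and KDM6B were at 9.20 and 28.1 CPM in DMSO, 14.9 and 50.6 CPM in RAC1i, and 14.1 and 42.3 CPM in Combo. Both, 2 of the 5 genes of this list, were past 1.5-fold in RAC1i (1.62 and 1.80) and in Combo (1.53 and 1.51), where 22.7% and 21.3% of all genes were higher. KDM6A reached 10 CPM only in the treated libraries. BAP1, which removes ubiquitin from histone H2A, was at 0.772 times DMSO in RAC1i (0.736 to 0.810) and 0.753 times in Combo (0.716 to 0.792). Its partner ASXL1 was at 1.48 and 1.33 times DMSO and ASXL2 at 1.2 and 1.001 times.

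Of 20 genes known as PRC2 targets in other cells, 6 reached 10 CPM in DMSO or RAC1i. FOXC1, a developmental transcription factor, was higher in RAC1i (6.86 and 12.1 CPM, 1.77-fold, 1.66 to 1.89). The genes SOX17 (106 and 9.63 CPM), CDKN1C (35.2 and 9.37 CPM), CDKN2B (22.4 and 13.2 CPM) and DAB2IP (10.9 and 6.77 CPM) were at least 1.5-fold lower. These 4 of 6 lower and 1 of 6 higher stood beside 36.9% and 22.7% of all genes, and FOXC1 reached 10 CPM only in the treated libraries. SOX17, CDKN1C and DAB2IP reached it in DMSO but not in RAC1i. The counts thus lean on the library where each of these genes was high. CDKN2A, an inhibitor of the cell cycle, was at 616, 600 and 586 CPM in DMSO, RAC1i and Combo. Adding the EZH2 inhibitor to the RAC1 inhibitor moved none of the 4 target genes tested between Combo and RAC1i past 1.5-fold, CDKN1C being the highest (1.24, 1.17 to 1.32), but hardly any gene passed it (0.175% higher and 0.484% lower). Of the targets with any UMI, at whatever level, the interval lay above 1 for 10 of 19 and below 1 for 6 in RAC1i over DMSO, and above 1 for 9 of 20 and below 1 for 6 in Combo over DMSO, beside the shares of all genes given for PRC1. In Combo over RAC1i it lay above 1 for 2 of 20 and below 1 for 8, where it did so for 17.9% and 17.1% of 30865 genes. The histone mark itself was not measured.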

How the data were processed

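Single-cell libraries of OVCAR3 were made with the 10x 3′ v3.1 kit, 1 per condition. The authors deposited raw UMI counts per gene and barcode, whole numbers over 36601 genes, made with Cell Ranger 4.0.0 on GRCh38 (2020-A), per the labels and the study's methods. The deposited gene and barcode lists were read beside them. Doses follow the study's text.

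Cells were kept with more than 1000 genes, no more than 20% of UMIs from mitochondrial genes and a complexity (log of genes over log of UMIs) above 0.8. Doublets were not called. Counts were summed over kept cells and given as CPM with exact Poisson intervals. Ratios have exact conditional intervals and shares Clopper-Pearson intervals (scipy 1.17.1), all at 95% and for counting error only. Standardised ratios have normal intervals on the log2 scale. The kept total, 199063947 to 234969742 UMIs per library, sets the precision. For MKI67 classes and list ranges, cells were thinned to 5000 UMIs and shallower cells left out (806 in DMSO, 1015 in RAC1i, 885 in Combo), and levels were then taken from all UMIs of those cells. Alternatives used edgeR 4.0.16 (TMM) and DESeq2 1.42.0 (size factors) for scaling only. In Poisson counts simulated for RAC1i over DMSO, 95.2% of 8145 genes had a true ratio inside their interval. This checks the calculation only, since no variation between cells or cultures was simulated. No column of samples was left unused.

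The members and gene lists were chosen with earlier results of these data known. The text names the 10 members, MKI67 and TOP2A, genes of 2 small Polycomb lists at 10 CPM or more, the largest differences of the PRC1 and PRC2 target lists, and the 5 genes most like EZH2. The values of 1 gene that the rule names are not reported here. Genes outside that rule were named for cell type, as class genes or because a count was small. Coordinates are from GENCODE 44 and promoter windows from RefSeq (GRCh38.p14), which held 15 windows for the 10 members. The deposited counts came from an older annotation.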

Additional observations from a re-analysis of the deposited data

How the results depend on the processing

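No paired analysis was possible because each condition had 1 library, and for the same reason none was left out. Over 600 recomputed log2 ratios of single members, 436 stayed within the original counting interval, 164 moved outside it, 24 changed sign and 0 of those at least 1.5-fold from 1 reversed. The changes of sign were those of EED, JARID2, EZH1 and AEBP2. The widest were those of JARID2, which with the mean over cells went from log2 -0.13 to 0.41 in RAC1i over DMSO and from -0.41 to 0.35 in Combo over DMSO. With the MKI67 class from all UMIs it went from 0.32 to -0.04 in RAC1i and from 0.30 to -0.08 in Combo, and EZH1 went from 0.13 to -0.28 in Combo when levels came from thinned UMIs. The cause of these moves was not tested unless the setting itself shows it.

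EZH2 in RAC1i over DMSO (log2 -1.37) became -1.29 with TMM, -1.26 with DESeq2 size factors, -1.44 without mitochondrial genes, -1.30 after thinning, and, in a setting added later, -0.88 and -1.27 when standardised over the S and the G2M list. In Combo over DMSO (log2 -1.08) it became -0.99 with TMM, -0.96 with DESeq2 size factors, -1.15 without mitochondrial genes, and -0.66 and -0.99 when standardised. In MKI67-positive over MKI67-negative cells of DMSO (log2 0.88) it became 1.35 with the class from all UMIs, 1.11 at 10000 UMIs, 0.79 at 2500 UMIs and 0.74 with TOP2A. In RAC1i (log2 0.63) it became 0.82 with the class from all UMIs, and in Combo (log2 0.59) 0.81 with all UMIs, 0.71 at 10000 UMIs, 0.47 with TOP2A and 0.85 from thinned UMIs.

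The number of members past 1.5-fold in RAC1i over DMSO (3) was 5 without mitochondrial genes, 6 at a limit of 25%, 1 at 2-fold, and 2 with TMM or DESeq2 size factors, when PHF19 was lost. It was 4, with RBBP7 gained, with the mean over cells, after thinning, at a mitochondrial limit of 10% and without the 8% of cells with the most UMIs. In Combo over DMSO (2) it was 4 with the mean over cells, 7 at a limit of 25%, 1 at 2-fold, and 3 with TMM or DESeq2 size factors, when AEBP2 was gained. It was also 3 with RBBP4 gained without mitochondrial genes, with every deposited barcode and without the 8% of cells with the most UMIs, and with RBBP7 gained after thinning. Between MKI67 classes (1 in each library) it was 2 in DMSO with all UMIs or at 10000 UMIs, 0 in RAC1i at 2500 UMIs or with TOP2A, 3, 3 and 2 at a limit of 25% in DMSO, RAC1i and Combo, and 0 in each at 2-fold. Among genes past 1.5-fold in Combo over RAC1i, 73.5% were lower, and 60.8% with TMM and 51.7% after thinning. In RAC1i over DMSO the share was 61.9%, and 55.2% with DESeq2 size factors.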
